A study of Mus musculus with 2 samples.

Results

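The genes described here are 34 of the 31053 genes in the count tables of a single-cell study of mouse colon. They are the listed genes of protein folding in the endoplasmic reticulum (ER) and of the unfolded protein response, taken by symbol, and each symbol was found in both tables. The contrast asked of them is that of mucin-high cells with absorptive cells. The study holds 2 libraries, 1 per group. One was made from colonic epithelium of c-Kit-creERT2 mice that received no treatment. The other was made from GFP-positive cells sorted from c-Kit-creERT2;Rosa26-mTG mice after 1 intraperitoneal dose of tamoxifen at 1 mg per 20 g of body weight, so that both carry the inducible recombinase driven by Kit and the GFP library carries the reporter as well. Age and the number of animals behind a library are not given in the sources used here.

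Secreted and membrane proteins are threaded into the ER, where chaperones fold them, disulfide isomerases pair their cysteines, and proteins that fail to fold are exported for degradation. When unfolded protein builds up, the sensors IRE1, PERK and ATF6 signal to the nucleus and raise the genes of this machinery, a programme called the unfolded protein response. Colonic goblet cells make and store the mucin MUC2, a very large protein rich in disulfide bonds, and their epithelium-specific IRE1 paralog, encoded by Ern2, is known for its role in mucin production. Colonocytes, the absorptive cells of the colon, take up salt and water and secrete far less protein.

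Ratios for this contrast were computed within each library, on classes named after both libraries had been clustered together. Because a group is a single library, no difference here has a replicate check and no test was run. The filter kept 7762 cells of the whole epithelium library and 5767 of the GFP library, with medians of 14160 and 15821 unique molecular identifiers (UMIs, counted transcripts) per cell. Goblet-like cells numbered 1046 and 909, and colonocyte-like cells 2197 and 1581, in that order. The names rest on marker lists that contain none of the 34 genes, and clustering left the 34 genes out. All 11 goblet markers were detected in the goblet-like cells, at 3.29% and 4.78% of UMIs against 0.0674% and 0.188% in colonocyte-like cells. The 12 colonocyte markers made up 1.92% and 2.40% of UMIs in colonocyte-like cells and 0.187% and 0.257% in goblet-like cells. Median mitochondrial shares were 7.87% and 7.31% in goblet-like cells and 12.6% and 13.7% in colonocyte-like cells, so this quality measure moved with the class, and its part in the results was not tested. Markers of B and plasma cells, another secretory type, summed to between 2.38 and 3.28 CPM (a gene's UMIs scaled to one common total) in both classes. Of these 7 markers, 1 and 4 were at 0 in goblet-like cells and 3 and 3 in colonocyte-like cells. Cells left without a class made up 34.7% of the whole epithelium library and 41.7% of the GFP library. They include shallow clusters of 1066 and 1470 cells with medians of 1860 and 1832.5 UMIs.

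The sequence searched for near these genes was the ER stress response element, the letters CCAAT and CCACG with any 9 bases between them. RefSeq promoter windows on GRCm38.p6 were matched for 27 of the 34 genes and searched on both strands over the 250 bases before the start. The element stood in 9 of the 27 (33.3%), against 35 of all 27025 genes with a window (0.130%). These 9 were Hspa5, Hsp90b1, Dnajc3, Calr, Canx, Pdia6, Creld2, Syvn1 and Derl3. The 34 genes were listed as genes of ER folding and stress, so the higher share cannot be told apart from that choice. The shorter second form, ATTGG and CCACG with any 1 base between them, was found in Herpud1 alone among the 27 and in 10 genes in all (0.037%). Sites are shown as examples, chosen after values were seen: Hspa5, Hsp90b1 and Pdia6 for chaperones and isomerases, Canx and Derl3 as the lowest and highest class contrast of the 9, and Herpud1 for the second form. They are printed along the gene's strand with the element in capitals. A site on the opposite strand therefore reads CGTGG, 9 bases, ATTGG.
Hspa5, chr2:34772020-34772048: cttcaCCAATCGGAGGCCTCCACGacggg
Hsp90b1 upstream site, chr10:86705633-86705661: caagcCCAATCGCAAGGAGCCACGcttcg
Hsp90b1 downstream site, chr10:86705528-86705556: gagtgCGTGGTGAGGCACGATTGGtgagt
Pdia6, chr12:17266486-17266514: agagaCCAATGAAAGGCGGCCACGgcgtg
Canx, chr11:50325795-50325823: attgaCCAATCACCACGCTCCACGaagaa
Derl3, chr10:75893237-75893265: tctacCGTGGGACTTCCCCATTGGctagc
Herpud1, second form, chr8:94386372-94386392: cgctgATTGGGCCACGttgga
Distances are to the RefSeq start on which the window is built, which for these 3 genes differs from the GENCODE start. The Hspa5 element began 65 bases before the RefSeq start, that of Pdia6 98 bases, and those of Hsp90b1 212 and 107 bases before it. Hsp90b1 was the member printed with 2 elements, 1 in each orientation. The 8 letters TGACGTGG, a core bound by XBP1 and ATF6, were in none of the 27 windows and in 0.603% of all genes. CCACG alone was in 21 of the 27 and in 31.0% of all genes. A match is a description of letters in a window, and the absence of a match says nothing of a factor.

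Most of the 34 genes were higher in goblet-like than in colonocyte-like cells, in both libraries. At least 2-fold higher were 22 of 34 in the whole epithelium library, where 31.1% of all 12560 tested genes passed the same fold, and 22 of 34 in the GFP library, where 33.3% of 12451 did. The calls coincided for 21 genes, against 27.5% of genes tested in both. None was at least 2-fold lower, against 12.3% and 10.7% of all genes, and 9.07% in both. The median log2 ratio of the 34 was 1.24 and 1.30, while the median of all tested genes was itself shifted to 0.40 and 0.50. After centring on that shift, 15 and 12 members were 2-fold higher (all genes 22.3% and 21.2%), and 12 were so in both libraries (17.8%). Those 12 were Creb3l4, Pdia5, Ern2, Derl3, Creb3l1, Pdia6, Hyou1, Creld2, Pdia4, Manf, Sdf2l1 and Ssr1. Stem cell markers also moved with the class, summing to 494 and 425 CPM in goblet-like against 47.5 and 55.2 CPM in colonocyte-like cells, as did cycling markers, at 384 and 555 against 74.6 and 96.2 CPM. Their part in the class difference was not tested. Together the 34 genes held 0.976% and 0.970% of goblet-like UMIs and 0.415% and 0.389% of colonocyte-like UMIs. All 34 passed the minimum of 20 UMIs over both classes, Derl3 only through the goblet-like cells.

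**Figure D1:**
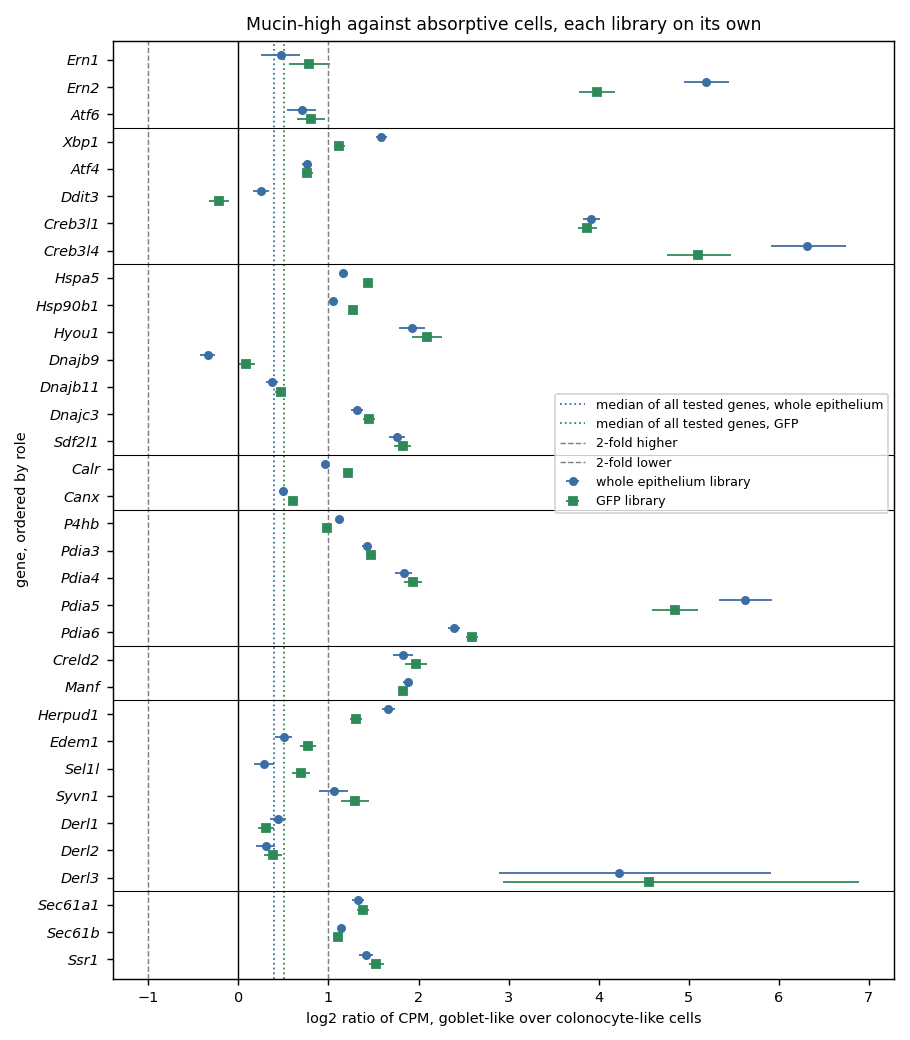
Log2 ratio of CPM in goblet-like over colonocyte-like cells for each of the 34 genes (rows, ordered by role), with 95% counting intervals; circles are the whole epithelium library and squares the GFP library. Dotted lines mark the median of all tested genes (0.40 and 0.50) and dashed lines a 2-fold difference; Ern2, Creb3l1, Creb3l4, Pdia5 and Derl3 lie far to the right of the other genes in both libraries.

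Among the sensors, the 2 IRE1 genes differed widely. Ern2 (chr7:122169893-122186207, minus strand, protein-coding; positions here and below are those of GENCODE M21 on GRCm38) stood at 137.8 CPM in goblet-like and 3.77 CPM in colonocyte-like cells of the whole epithelium library, and at 113.5 and 7.197 CPM in the GFP library. The log2 ratios were 5.19 (95% interval 4.95 to 5.45, counting error only, as are all intervals here) and 3.98 (3.79 to 4.18). Its paralog Ern1 (chr11:106394650-106487852, minus strand), the IRE1 gene used in most tissues, stood at 16.2 against 11.7 CPM and at 14.9 against 8.64 CPM. Its log2 ratios were 0.47 (0.25 to 0.68) and 0.79 (0.56 to 1.02), near the shift of all genes. The interval of the Ern2 ratio thus lay above that of Ern1 in each library. Ern2 was lower in every other named epithelial class: 10.5 and 23.9 CPM in stem or transit-amplifying (stem/TA)-like cells, 15.2 and 13.3 CPM in enteroendocrine-like cells, and 22.4 and 34.1 CPM in tuft-like cells. Ern1 was not highest in goblet-like cells, since enteroendocrine-like cells held 17.2 and 21.3 CPM, a difference within counting error in each library (log2 of goblet-like over enteroendocrine-like -0.09, -0.60 to 0.47, and -0.52, -1.24 to 0.31).

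The share of cells with an Ern2 UMI showed the same split at matched depth. With each cell thinned to 3000 UMIs, 33.0% and 33.9% of goblet-like cells held one, against 1.33% and 1.81% of colonocyte-like cells. Thinning left out 173 and 62 goblet-like and 315 and 33 colonocyte-like cells. Before thinning the shares were 67.1% and 85.0% against 4.69% and 11.9%, at median depths of 15734.5 and 22087 UMIs against 13751 and 18644. Ern1 was found in 5.15% and 5.55% of thinned goblet-like cells and in 4.04% and 2.07% of colonocyte-like cells. Cells that should lack goblet transcripts also held some. T and NK-like cells of the whole epithelium library had 14 Ern2 UMIs, or 8.99 CPM, above the colonocyte-like level, and those of the GFP library had 0 UMIs, which allows up to 23.5 CPM. These T and NK-like cells were shallower, with medians of 4240 UMIs in the whole epithelium and 1920 in the GFP library. Whether the low Ern2 level of colonocyte-like cells is their own transcript was not tested.

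ATF6, the sensor cut free in the Golgi to act as a transcription factor, followed another class. Atf6 was modestly higher in goblet-like than colonocyte-like cells, at 29.3 against 18.0 CPM and 31.1 against 17.8 CPM, with log2 ratios of 0.70 and 0.80. Enteroendocrine-like cells held 105.4 and 138.5 CPM, above all other epithelial classes of both libraries. The log2 ratio of goblet-like over enteroendocrine-like cells was -1.85 and -2.15. Atf6 was the only 1 of the 34 genes that lay at least 2-fold lower in goblet-like than in enteroendocrine-like cells, in either library (all genes 16.7% and 20.1%). Within the whole epithelium library it was uneven between the enteroendocrine-like clusters, at 126 and 32.2 CPM.

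The transcription factors ranged from the widest to the smallest differences in the list. Creb3l4 (chr3:90237500-90243512, minus strand), a membrane-bound factor of the CREB3 family that is released by cleavage, stood at 108.6 against 1.36 CPM and at 73.4 against 2.14 CPM. The log2 ratios were 6.31 (5.91 to 6.75) and 5.10 (4.75 to 5.46), the highest of the 34 in each library. Elsewhere Creb3l4 reached 5.01 and 4.61 CPM in stem/TA-like, 10.6 and 10.7 CPM in enteroendocrine-like, and 7.47 and 24.0 CPM in tuft-like cells, so that goblet-like cells stood above all of them. Its relative Creb3l1 (chr2:91982328-92024502, minus strand), also known as OASIS, stood at 436.9 against 28.9 CPM and at 345.2 against 23.6 CPM, with log2 ratios of 3.92 and 3.87. Creb3l1 was intermediate in stem/TA-like (79.8 and 108.0 CPM), enteroendocrine-like (107.5 and 107.9 CPM) and tuft-like cells (56.1 and 140.1 CPM). For both genes every goblet-like cluster lay above every colonocyte-like cluster.

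Xbp1 (chr11:5520659-5525893, plus strand), whose transcript IRE1 cuts to make the active factor, stood at 301.3 against 100.4 CPM and at 243.0 against 111.8 CPM. The log2 ratios were 1.59 (1.53 to 1.65) and 1.12 (1.06 to 1.18). Enteroendocrine-like cells came next at 170.3 and 182.5 CPM, stem/TA-like cells held 117.6 and 137.7 CPM, and tuft-like cells 97.2 and 132.6 CPM. Counts of 3' ends do not separate the cut from the uncut transcript, so IRE1 activity was not measured. Atf4, the factor translated when PERK or a related kinase slows protein synthesis, stood at 327.7 against 193.7 CPM and at 201.0 against 118.5 CPM, with a log2 ratio of 0.76 in each library. Stem/TA-like, enteroendocrine-like and tuft-like cells held between 147.6 and 352.8 CPM of Atf4, the highest in enteroendocrine-like cells of the whole epithelium library. Ddit3, which encodes the stress factor CHOP, did not keep its direction: 87.8 against 73.7 CPM in the whole epithelium library and 42.9 against 49.8 CPM in the GFP library. In enteroendocrine-like cells it stood at 106.5 and 54.6 CPM. The latter rests on 41 UMIs and lay within counting error of the colonocyte-like level (log2 0.13, -0.35 to 0.58). Ddit3 stood at 48.2 and 23.6 CPM in stem/TA-like and 31.8 and 27.8 CPM in tuft-like cells. The exons of Ddit3 overlap those of a second annotated gene on the same strand. Reads from the shared stretch do not tell the genes apart, so the count of Ddit3 may be affected.

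Of the 7 HSP70 and HSP90 chaperones with their partners, 5 were at least 2-fold higher in goblet-like cells of each library: Hspa5, Hsp90b1, Hyou1, Dnajc3 and Sdf2l1. Hspa5 (chr2:34771970-34777547, plus strand), which encodes BiP, the main HSP70 of the ER, stood at 1080 against 482 CPM and at 1143 against 421 CPM. The log2 ratios were 1.16 (1.13 to 1.19) and 1.44 (1.41 to 1.47). Stem/TA-like cells held 783 and 688 CPM, enteroendocrine-like cells 817 and 745 CPM, and tuft-like cells 475 and 630 CPM. BiP transcript was thus abundant in every class and highest in goblet-like cells. The widest ratio of the group was that of Hyou1, a BiP partner that exchanges its nucleotide, at 64.0 against 16.8 CPM and 50.3 against 11.8 CPM (log2 1.93 and 2.09). Hyou1 stood at 38.9 and 29.2 CPM in stem/TA-like, 51.2 and 36.0 CPM in enteroendocrine-like, and 44.8 and 22.7 CPM in tuft-like cells. Hsp90b1 (GRP94), Dnajc3 (an HSP40 partner also called P58IPK) and Sdf2l1 had log2 ratios from 1.05 to 1.76 in the whole epithelium library and from 1.28 to 1.82 in the GFP library.

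The other HSP40 partners did not share that difference. Dnajb9 (ERdj4), which loads BiP onto the IRE1 sensor, stood at 82.2 against 104.1 CPM in the whole epithelium library, a log2 ratio of -0.34 (-0.43 to -0.25), and at 67.0 against 63.0 CPM in the GFP library, a ratio of 0.09 (-0.01 to 0.18). Stem/TA-like cells held less, 47.2 and 25.8 CPM, as did tuft-like cells with 43.0 and 35.4 CPM, while enteroendocrine-like cells held 83.1 and 77.3 CPM. Dnajb11 (ERdj3) had log2 ratios of 0.37 and 0.47, which became -0.02 and -0.03 when centred on all genes.

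The lectin chaperones bind sugar-bearing proteins while they fold. Calr (calreticulin, soluble) stood at 1141 against 587 CPM and at 1296 against 556 CPM, with log2 ratios of 0.96 and 1.22, and at 888 and 1003 CPM in stem/TA-like, 804 and 705 CPM in enteroendocrine-like, and 650 and 999 CPM in tuft-like cells. Canx (calnexin, membrane-bound) stood at 320.5 against 227.2 CPM and at 310.2 against 203.4 CPM, with log2 ratios of 0.50 and 0.61. Canx was the single member lower in goblet-like than in stem/TA-like cells, which held 389 and 372 CPM (log2 -0.28 and -0.26). Enteroendocrine-like cells held 352 and 282 CPM and tuft-like cells 318 and 327 CPM of Canx.

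All 5 disulfide isomerases were higher in goblet-like cells, at least 2-fold in each library except P4hb in the GFP library. Pdia5 (chr16:35397312-35490873, minus strand) stood at 138.6 against 2.81 CPM and at 119.7 against 4.17 CPM, with log2 ratios of 5.62 (5.34 to 5.92) and 4.84 (4.60 to 5.10). The other classes lay between: 20.8 and 25.3 CPM in stem/TA-like, 18.8 and 22.6 CPM in enteroendocrine-like, and 13.1 and 31.6 CPM in tuft-like cells. Thinned to 3000 UMIs, 29.2% and 29.8% of goblet-like cells held a Pdia5 UMI, against 0.584% and 1.098% of colonocyte-like cells. P4hb, the founding isomerase PDI, stood at 667 against 307 CPM and at 595 against 301 CPM (log2 1.12 and 0.99), with 408 and 349 CPM in stem/TA-like, 349 and 293 CPM in enteroendocrine-like and 331 and 369 CPM in tuft-like cells. Pdia6, Pdia4 and Pdia3 had log2 ratios of 2.39, 1.83 and 1.42 in the whole epithelium library and of 2.59, 1.94 and 1.48 in the GFP library. Pdia5 stood apart from these relatives: its interval began at 5.34 and 4.60, above the highest of theirs.

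Both secreted stress proteins were more than 3-fold higher in goblet-like cells. Creld2 stood at 93.7 against 26.4 CPM and at 95.7 against 24.4 CPM (log2 1.83 and 1.97), and at 77.7 and 63.3 CPM in stem/TA-like, 56.8 and 52.0 CPM in enteroendocrine-like and 43.0 and 63.1 CPM in tuft-like cells. Manf, which is held in the ER and released under stress, stood at 536 against 146 CPM and at 588 against 165 CPM (log2 1.88 and 1.83). Manf held 353 and 389 CPM in stem/TA-like, 294 and 314 CPM in enteroendocrine-like and 177 and 371 CPM in tuft-like cells. Its exons overlap those of Rbm15b on the same strand. Reads from the shared stretch do not tell the genes apart, so the count of Manf may be affected.

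Degradation genes had the lowest median ratio of the roles (0.50 and 0.78). Of 7, 3 were at least 2-fold higher in each library: Herpud1, Syvn1 and Derl3. Herpud1, a membrane scaffold of the degradation complex, stood at 233.7 against 73.8 CPM and at 193.1 against 78.1 CPM (log2 1.66 and 1.31). Syvn1 (HRD1), the ubiquitin ligase of that complex, had ratios of 1.06 and 1.29, while its partner Sel1l had 0.28 and 0.69, the former -0.11 when centred. Edem1, which hands over misfolded glycoproteins, had 0.50 and 0.78. The 3 derlins, thought to line the exit channel, were split: Derl1 had 0.44 and 0.31 and Derl2 0.30 and 0.38, near or under the shift of all genes (centred on it, Derl1 kept its sign in the whole epithelium library alone and Derl2 in neither), and Derl3 had 4.22 (2.90 to 5.91) and 4.56 (2.93 to 6.89). Derl3 rests on few UMIs, 47 and 51 in goblet-like cells against 5 and 3 in colonocyte-like cells, or 2.55 against 0.136 CPM and 2.17 against 0.0919 CPM. It was not confined to goblet-like cells, at 1.69 and 0.709 CPM in stem/TA-like cells (60 and 14 UMIs). Enteroendocrine-like cells held 2.03 and 4.0 CPM on only 4 and 3 UMIs, too few to rank against goblet-like cells. In tuft-like cells Derl3 had 1.87 CPM, from 1 UMI, and, in the GFP library, 0 UMIs in 44 cells. Derl2 stood at 68.6 against 55.7 CPM and at 69.9 against 53.6 CPM, with 58.8 and 68.6 CPM in stem/TA-like, 44.1 and 61.3 CPM in enteroendocrine-like and 39.2 and 68.2 CPM in tuft-like cells.

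The 3 translocon genes, which form or assist the channel into the ER, moved alike. Ssr1 stood at 178.3 against 66.8 CPM and at 173.5 against 60.0 CPM (log2 1.42 and 1.53), and Sec61b at 849 against 385 CPM and 1028 against 478 CPM (log2 1.14 and 1.10). Sec61a1, the channel itself, had ratios of 1.32 and 1.38. In stem/TA-like, enteroendocrine-like and tuft-like cells, Ssr1 lay between 87.8 and 142 CPM and Sec61b between 450 and 764 CPM, all below the goblet-like level of the same library.

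**Figure D2:**
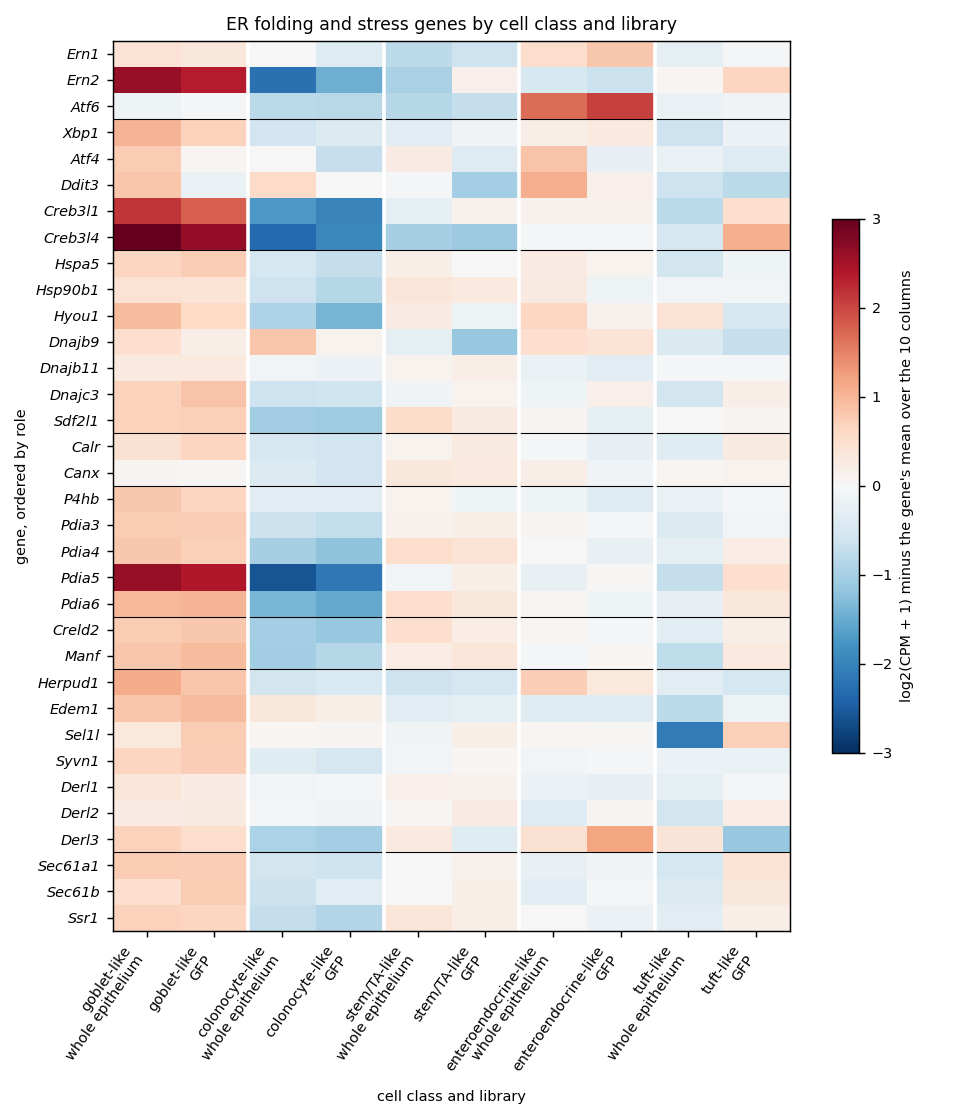
Level of each gene (rows, by role) in 5 epithelial classes of each library (columns), as log2(CPM + 1) minus the gene's mean over the 10 columns; red is above and blue below that mean. Goblet-like columns are red for most rows and darkest for Ern2, Creb3l1, Creb3l4 and Pdia5, colonocyte-like columns are blue for most rows, and Atf6 is darkest in the enteroendocrine-like columns.

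Set against stem/TA-like cells, fewer members reached a 2-fold difference. At least 2-fold higher in goblet-like than stem/TA-like cells were 8 members in the whole epithelium library (all genes 10.7%) and 9 in the GFP library (8.16%). In both libraries these were Creb3l4, Ern2, Pdia5, Creb3l1, Herpud1, Edem1 and Ern1. The median of the 34 was 0.62 and 0.70, against -0.11 and -0.17 for all genes, and 33 of 34 lay above 0. Stem/TA-like cells in turn stood at least 2-fold above colonocyte-like cells for 12 of 34 members in the whole epithelium library and 12 of 33 tested in the GFP library, where 33.7% and 36.3% of all genes did, so that share is close to the background. This contrast shares its colonocyte-like cells with the one above. Pdia6 had a stem/TA-like over colonocyte-like ratio of 1.91 and 1.89, and Pdia4 of 1.53 and 1.64. Dnajb9 lay the other way, at least 2-fold lower in stem/TA-like than colonocyte-like cells of both libraries (log2 -1.14 and -1.29; all genes 13.5% and 11.4%), and Ddit3 did so in the GFP library alone (-0.61 and -1.08). Over enteroendocrine-like cells the 34 had a median of 0.66 and 0.78 (all genes -0.22 and -0.21), and over tuft-like cells 1.06 and 0.64 (-0.18 and -0.18), where tuft-like cells numbered only 42 and 44.

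The difference from colonocyte-like cells was present between single clusters, although clusters are not replicates. In the whole epithelium library 24 of the 34 genes were higher in every goblet-like cluster than in every colonocyte-like cluster, where 25.3% of all genes were. In the GFP library, with fewer goblet-like clusters to separate, 32 were, against 45.6%. The summed level of the 34 genes was 11284, 9135, 7242 and 6428 CPM in the goblet-like clusters of the whole epithelium library and between 4007 and 4257 CPM in its colonocyte-like clusters. It was 10006 and 8901 CPM in the goblet-like clusters of the GFP library and between 3365 and 5151 CPM in the colonocyte-like ones. Ern2 ranged from 63.4 to 171.7 CPM over goblet-like clusters and from 2.01 to 5.32 CPM over colonocyte-like clusters of the whole epithelium library. The goblet-like cluster with the lowest sums, of 308 cells, was also shallow, with a median of 5077.5 UMIs. Shallower still was the one at 7242 CPM, with only 23 cells and a median of 2405 UMIs. Its other 334 cells belong to the GFP library. In the count of 24 genes it weighs as much as the larger clusters. The largest, of 473 cells, carries much of the count in the whole epithelium library: without it 15 members were at least 2-fold higher, and the median was 0.92.

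**Figure D3:**
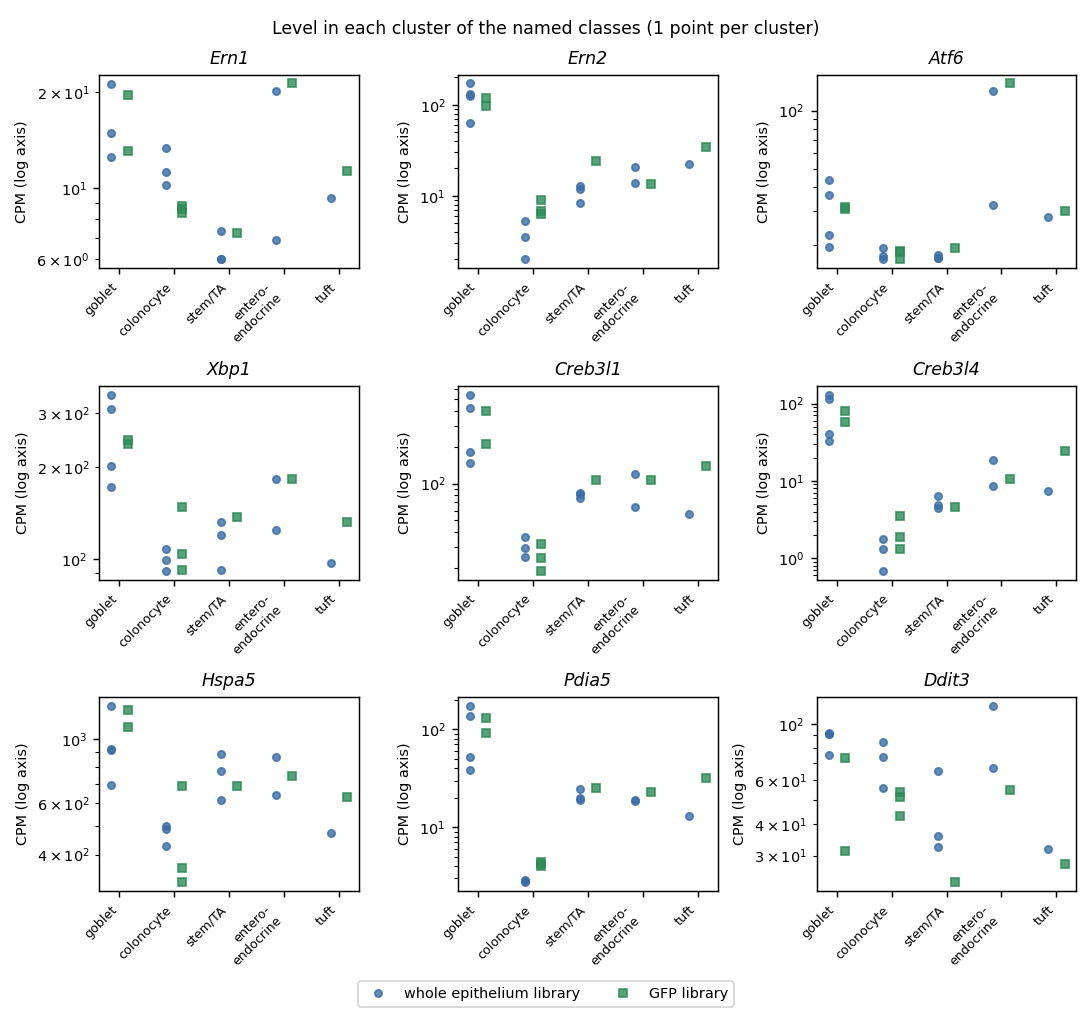
Level in CPM (log axis) of 9 genes in each cluster of 5 epithelial classes, 1 point per cluster with circles for the whole epithelium library and squares for the GFP library; clusters at 0 are not drawn, which leaves out Ern1 in a goblet-like cluster of 23 cells. Goblet-like points of Ern2, Creb3l1, Creb3l4 and Pdia5 lie above all others, Atf6 is highest in 1 enteroendocrine-like cluster of each library, and the goblet-like and colonocyte-like points of Ddit3 overlap.

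Within the goblet-like cells, some members followed the share of Muc2 transcript. Muc2, no member of the list, is a goblet marker that was used to name the classes. It stood at 16084 against 280 CPM and at 20031 against 634 CPM in goblet-like and colonocyte-like cells. That difference follows in part from the naming. Goblet-like cells of each library were ranked by the share of Muc2 in their UMIs and cut into 3 equal groups. The log2 ratio of the highest over the lowest group had a median over the 34 genes of 0.40 in the whole epithelium library and 0.13 in the GFP library, against -0.02 and -0.14 for all genes. It lay above 0 for 28 and for 20 of the 34, against 48.2% and 37.4% of all genes. None reached 2-fold (6.02% and 3.92% of all genes). Ern2 stood at 104.8, 126.2 and 187.7 CPM from the lowest to the highest group of the whole epithelium library and at 89.7, 112.3 and 148.8 CPM in the GFP library, a ratio of 0.84 and 0.73. Edem1 (0.83 and 0.56), Creb3l4 (0.75 and 0.53) and Creb3l1 (0.63 and 0.63) were likewise higher from group to group in both libraries. So were Dnajc3 (0.81 and 0.30), Xbp1 (0.57 and 0.34) and Pdia5 (0.31 and 0.34). Atf6 (0.87 and 0.54) rose so in the whole epithelium library. In the GFP library it stood at 24.4, 35.2 and 35.3 CPM, nearly level from the middle to the highest group. Sec61a1 (0.88 and 0.32), Syvn1 (0.82 and 0.19), Sel1l (0.67 and 0.15) and Ssr1 (0.39 and 0.04) were like Atf6 in this. Hspa5 was higher from group to group in the whole epithelium library alone, at 868, 1079 and 1329 CPM. In the GFP library Hspa5 stood at 1084, 1266 and 1062 CPM. The ranked groups differ in cluster as well as in Muc2, since the goblet-like clusters of the whole epithelium library had 25751, 20699, 5874 and 5217 CPM of Muc2.

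**Figure D4:**
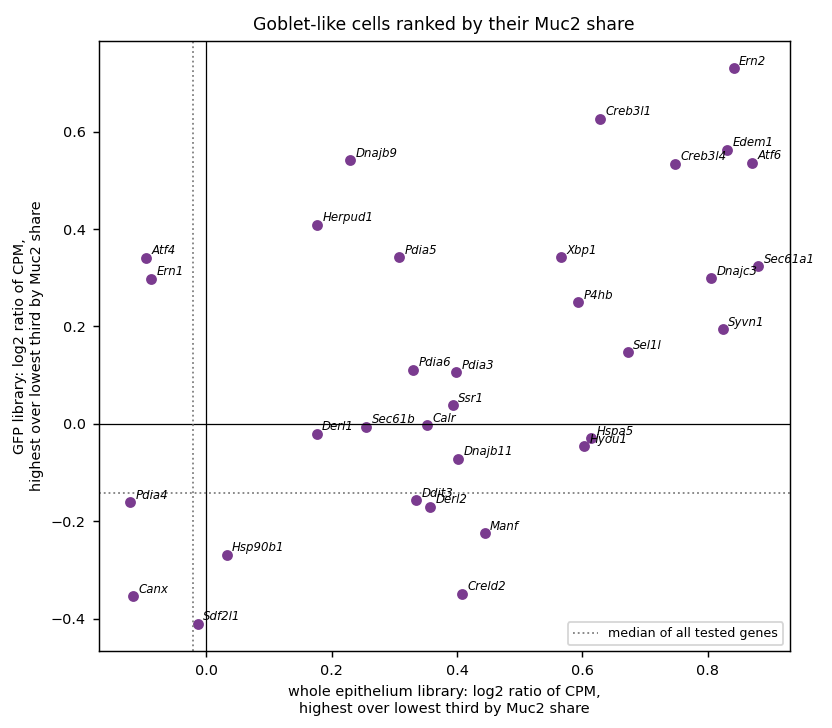
Log2 ratio of CPM between the highest and the lowest of 3 equal groups of goblet-like cells ranked by Muc2 share, in the whole epithelium library (horizontal axis) and the GFP library (vertical axis), 1 point per gene; Derl3 is not drawn because of its few UMIs. Dotted lines mark the median of all tested genes (-0.02 and -0.14); Ern2, Atf6, Edem1, Creb3l1 and Creb3l4 lie to the upper right, while Canx lies below 0 on both axes.

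Members with the ER stress response element ranged from narrow to wide class contrasts. The 9 genes with the element had log2 ratios of goblet-like over colonocyte-like cells from 0.50 to 4.22 (median 1.16) in the whole epithelium library and from 0.61 to 4.56 (median 1.44) in the GFP library. The 18 matched members without it had medians of 1.13 and 1.04. At least 2-fold higher were 7 and 8 of the 9, and 10 and 9 of the 18 (all genes 31.1% and 33.3%). Creb3l4 and Pdia5, with the highest ratios among matched members, had no element in the window searched. Derl3, which carries it, had the highest ratio of the 9 and Canx the lowest. Ern2, Creb3l1, Atf6, Hyou1, Manf, Derl1 and Sec61a1 had no matched window. Of the 26 other genes with the element, 7 were tested in both libraries. At least 2-fold higher in both were 3 of them, Hnrnpa3 and the relatives Xlr3a and Xlr3b (all genes 27.5%).

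Related genes of the secretory pathway were counted in 9 companion lists, for genes at least 2-fold higher in goblet-like than colonocyte-like cells of both libraries (all genes 27.5%). Values in parentheses are the log2 ratios in the whole epithelium and GFP library. Translocation and signal peptidase genes had 14 of 19, led by the signal peptidase genes Sec11c (2.099 and 2.23) and Spcs3 (1.66 and 1.81), with Srp14 (0.69 and 0.66) and Srp68 (0.46 and 0.32) of the signal recognition particle lowest. N-glycosylation genes had 10 of 15, led by the glucosidase gene Mogs (2.63 and 2.68) and Krtcap2 (1.96 and 2.07), with the oligosaccharyltransferase genes Tusc3 (0.34 and 0.43) and Stt3b (0.00 and 0.13) lowest. Other oxidative folding genes had 9 of 15 tested. Agr3, counted among the 9, stood at 0.246 and 0.214 CPM in colonocyte-like cells and passed the UMI minimum through goblet-like cells alone. Agr2, the isomerase relative required for MUC2, was highest (6.11 and 4.88), then the prolyl isomerase gene Fkbp11 (5.55 and 4.85), and Tmx1 (0.26 and 0.37) and the oxidase gene Ero1l (-0.08 and -0.21) were lowest. The protein-entry and protein-folding lists thus held high shares, with members at the background in each.

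The transport, degradation and stress transducer lists stood lower, close to the share of all genes (27.5%). ER to Golgi transport had 8 of 24, led by the retrieval receptor gene Kdelr3 (6.01 and 4.98) and the cargo receptor gene Lman1 (3.18 and 3.38). Of the COPII coat genes, Sar1b (-0.30 and -0.51) and Sec23a (-1.94 and -1.51) were lowest, and Sec23a was the 1 gene of that list at least 2-fold lower in both libraries (all genes 9.07%). Other degradation genes had 4 of 12, led by Selenos (1.22 and 1.32) and Edem3 (1.13 and 1.33), with Nploc4 (-0.19 and -0.09) lowest. Among 10 other stress transducers 3 were higher, led by Bhlha15 (4.71 and 5.11), the secretory cell factor MIST1, and Creb3l2 (1.69 and 1.83). Traf2, an adaptor of IRE1 signalling, had -0.08 and 0.18, and Creb3l3, a relative of Creb3l2, lay far on the absorptive side (-3.82 and -3.26). Bhlha15 stood at only 0.273 and 0.245 CPM in colonocyte-like cells and passed the UMI minimum through goblet-like cells alone.

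The other stress lists differed by kind. The integrated stress response list had 9 of 16 tested. Among the 9 was Eif2ak3 (1.92 and 2.30), which encodes the ER sensor PERK itself. The list otherwise holds genes placed downstream of PERK and related kinases. It was led by the cystine transporter gene Slc7a11 (4.80 and 3.94) and by Nupr1 (3.73 and 3.78), with Atf3 (-0.02 and -0.94) and Ppp1r15b (-0.89 and -0.55) lowest. Slc7a11 stood at 0.164 and 0.368 CPM in colonocyte-like cells and likewise passed the minimum through goblet-like cells alone. Chac1, also counted as higher, did so in the GFP library, at 0.306 CPM in colonocyte-like cells. The list of heat shock genes outside the ER had 6 of 10, led by Hspb1 (3.84 and 1.06) and Hspd1 (1.43 and 1.72). Dnajb1 (0.39 and -0.08) and Hspa8 (0.13 and 0.07) were lowest. Hspd1 and Hspe1, both among the 6, encode mitochondrial chaperones. The GFP ratio of Hspb1 rests on 1.15 against 0.551 CPM, with an interval of 0.15 to 2.01. Immediate early genes, which cell dissociation is known to raise, had 1 of 14, Nr4a1 (2.92 and 2.16). Fosb (0.56 and -0.01) came next, and Jund (-0.33 and -0.76) and Klf6 (-0.72 and -0.97) were lowest. The heat shock list, Hspd1 and Hspe1 included, summed to 8658 and 6556 CPM in goblet-like cells and 4894 and 3966 CPM in colonocyte-like cells. Its part in the ER results was not tested.

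Between the libraries, differences within goblet-like cells went both ways and seldom reached 2-fold. The counting interval of GFP over whole epithelium lay above 0 for 7 of the 34 and below 0 for 13. Of the 34, 1 was at least 2-fold apart in goblet-like cells (all genes 8.73%), and 0 of 33 tested were in colonocyte-like cells (10.2%). The median log2 ratio of GFP over whole epithelium was -0.04 and -0.09, against 0.01 and -0.08 for all genes. These values rest on assigning each count table to the library with the same number of barcodes, because the records pair each table with the barcode list of the other library. The reverse assignment would turn every sign. Genotype, tamoxifen, sorting and sex also differ between the libraries (Xist, the X-inactivation RNA, stood at 0.0652 CPM in the whole epithelium and 749.8 CPM in the GFP library) and cannot be told apart.

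Ddit3 was the gene 2-fold apart in goblet-like cells, at 87.8 CPM in the whole epithelium library and 42.9 CPM in the GFP library, a log2 ratio of -1.03 (-1.15 to -0.92). The larger of the GFP goblet-like clusters held 31.2 CPM and the other 73.0 CPM, beside the whole epithelium clusters at 75.3 to 92.4 CPM. With equal weight per cluster the ratio was -0.75, short of 2-fold. Atf4 was lower in the GFP library in both classes, with a ratio of -0.71 in each, and in stem/TA-like cells at -0.63, where Ddit3 stood at -1.03. Dnajb9 was lower in colonocyte-like cells (-0.72) and less so in goblet-like cells (-0.29). Immediate early genes moved the same way: they summed to 9387 against 4303 CPM in goblet-like cells and to 8755 against 6348 CPM in colonocyte-like cells, with the whole epithelium library given before the GFP library. Their part in these differences was not tested.

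In colonocyte-like cells Ern2, Creb3l4 and Pdia5 were higher in the GFP library. Ern2 was 3.77 CPM in the whole epithelium and 7.197 CPM in the GFP library (log2 0.93, 0.63 to 1.25), Creb3l4 had a ratio of 0.65 and Pdia5 of 0.57. Other members high in goblet-like cells did not share this: Creb3l1 was lower in the GFP library (-0.29, -0.43 to -0.16), as were Pdia6 (-0.17) and Hyou1 (-0.51). In goblet-like cells Ern2, Creb3l4 and Pdia5 were lower in the GFP library, at -0.28, -0.56 and -0.21. Muc2 in colonocyte-like cells was likewise 280 CPM in the whole epithelium and 634 CPM in the GFP library, and Agr2 was 132.8 and 325.4 CPM. The part of free goblet RNA in these low levels was not tested.

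**Figure D5:**
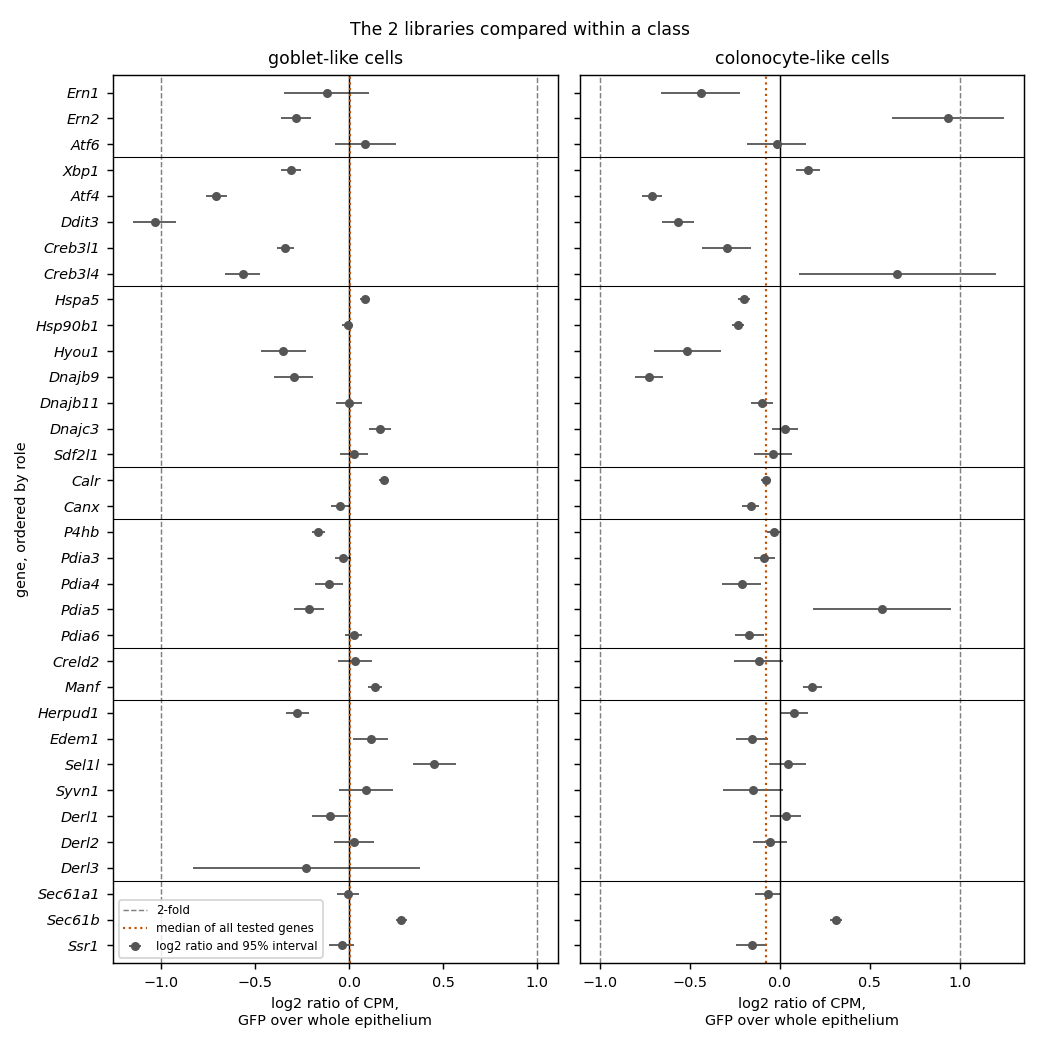
Log2 ratio of CPM, GFP over whole epithelium, for each gene (rows, by role) in goblet-like cells (left) and colonocyte-like cells (right), with 95% counting intervals; dashed lines mark 2-fold and the dotted line the median of all tested genes, and Derl3 is not drawn at right because it was not tested there. The points lie within 2-fold except that of Ddit3 at -1.03 in goblet-like cells, and Atf4 lies at -0.71 in both panels.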

How the data were processed

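Per the labels' protocols, crypts were released from colon with EDTA, digested to single cells and captured with 10x Genomics 3' v2 chemistry. The deposited values are raw UMI counts per gene and barcode on mm10, made with Cell Ranger (2.1.1 per the submitters' processing notes, 3.1.0 per the file headers); how cells were called is not given in the sources used here. The tables hold 13967 and 13575 barcodes with 164185392 and 150348319 UMIs. The members and lists were chosen with earlier results of these data known.

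Cells with at least 500 genes, 1000 UMIs and at most 25% mitochondrial UMIs were kept (55.6% and 42.5%). No doublets were removed. The libraries share 60 barcodes, 19 among kept cells. Both were clustered together without the 34 genes and companion lists (scanpy 1.11.5, leidenalg 0.10.2, 2000 variable genes, 30 components, 15 neighbours, resolution 1.0). A cluster took the class whose markers had the highest mean log2 fold over the median cluster, with at least 3 markers raised 2-fold, a score of at least 0.5, at least 20 cells, and a lead of 0.5 over the next class; the lead was required after the clusters had been seen.

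UMIs were summed per class and library and scaled to CPM. Genes with at least 20 UMIs over the pair compared were tested against the 2-fold threshold. Intervals are 95%, exact Poisson for levels, exact conditional binomial for ratios and Clopper-Pearson for shares (scipy 1.17.1), and cover counting error only. A sum of 0 was set to 3 UMIs for ratios. The scripts were tested on simulated data. All 34 genes are named, with full values for the highest and lowest of each role and for Ern1, Ern2, Xbp1, Hspa5, Ddit3, Atf4, Creb3l1 and Creb3l4, and the 2 highest and 2 lowest of each companion list, of which 1 is not reported here.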

Additional observations from a re-analysis of the deposited data

Results flagged for a closer look

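In 2 of the 34 genes the log2 ratio of goblet-like over colonocyte-like cells had opposite signs in the libraries. Ddit3 had 0.25 in the whole epithelium library and -0.22 in the GFP library. Dnajb9 had -0.34 and 0.09, in that order, and the interval of the latter included 0. Neither difference between the libraries was tested, since each library is a single sample.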

How the results depend on the processing

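No paired analysis was possible because each group holds 1 library. Over 13 alternative settings, 18 of 882 single-gene ratios changed sign, all in Ddit3, Derl1, Derl2, Dnajb11, Dnajb9 and Sel1l, and no ratio of at least 2-fold reversed. Of the 882, 463 moved outside their counting interval. The Ern2 ratio ranged from 4.64 to 6.92 in the whole epithelium library and from 3.48 to 4.60 in the GFP library, and that of Herpud1 from 1.26 to 1.91 and from 0.80 to 1.98. The median ratio of the 34 genes in the whole epithelium library (1.24) became 1.05 with each library clustered alone, 0.88 at resolution 0.5, 1.00 at resolution 2.0, 1.36 with a rank gate in place of clusters, 1.00 at a limit of 10% mitochondrial UMIs, 1.13 with totals that leave out markers and the 50 most abundant genes, 0.84 centred on all genes, 1.11 with equal weight per cluster, and 0.92 and 1.35 without the goblet-like clusters of 473 and 308 cells. It became 1.02 when clusters close to 2 classes were named as well, an alternative chosen after seeing the data. In the GFP library (1.30) it became 1.46 with the rank gate, 1.16 at the mitochondrial limit, 0.80 when centred, and 1.17 without the cluster of 575 cells. The count of genes at least 2-fold higher stayed within 1.5 times except when centred, at 12 in the GFP library and 12 in both. Of the genes 2-fold apart between libraries, Ddit3 in goblet-like cells (-1.03) fell short of 2-fold (0 genes) at -0.94 with each library clustered alone, -0.75 with equal weight per cluster and -0.85 with the added naming. In colonocyte-like cells 1 gene, Ern2, was called with each library clustered alone, at 5000 UMIs per cell, when centred and with equal weight per cluster, and 2, Atf4 and Creb3l4, at the mitochondrial limit. The causes were not tested. Depth limits Derl3 and the levels of Ern2, Creb3l4 and Pdia5 in colonocyte-like cells, and 42 and 44 tuft-like cells limit that class.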
